A study of Mus musculus with 6 samples.

Results

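Peaks of open chromatin were called near the Id genes and Msx1 in every usable library, while no peak was called within 10 kb of Msx2. These 6 genes, Id1, Id2, Id3, Id4, Msx1 and Msx2, were chosen by name from the 21887 protein-coding genes on chromosomes 1 to 19, X and Y. Each was described through the peaks that overlapped its body or the 10 kb either side of it (mm10). They were not picked by a measured value, but earlier results of these data were known when they were chosen.

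Id proteins carry a helix-loop-helix domain without a DNA-binding basic region, so they pair with E proteins and keep these from binding DNA. Msx1 and Msx2 are homeodomain factors that act mainly as repressors. Both families are classical targets of bone morphogenetic protein (BMP) signalling, in which ligands bind paired receptors and SMAD proteins carry the signal to the nucleus, and BMP signalling helps cushion cells of the early heart become mesenchyme.

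Open chromatin was measured by ATAC-seq, which uses a transposase to cut and label DNA that is not packed away, in immortalised mouse atrioventricular cushion mesenchymal cells, the embryonic tissue from which valves and septa form. All libraries came from cells of the same strain label, H- 2Kb-tsA58 transgenic, at passage 6, with 54000 cells each. The transgene encodes a temperature-sensitive viral oncoprotein used to immortalise cells. Cells were kept for 48 h in medium with glucose at 5.5 mM (normal glucose, libraries NG1, NG2 and NG3) or at 25 mM (high glucose, libraries HG1, HG2 and HG3), and the design asks whether glucose alters open chromatin in them. The labels do not say whether libraries came from separate cultures, so p-values reflect the spread among these libraries alone, and that spread may be technical.

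The 5 peak lists that were compared held 22156 to 40350 peaks, and NG3 had the longest. NG2 listed 66 peaks, none of them near the 6 genes, and was left out of comparisons. Without read counts in the lists the depth is unknown, and a longer list can hold weaker sites. In bulk cells, fewer cells with an open site and a less open site per cell cannot be told apart. A peak within 1 kb of the gene start was present in all 5 lists for 6 of 10 cushion mesenchyme markers, among them Snai1, Snai2, Sox9 and Vim, but in none for Pdgfra, against 37.2% of protein-coding genes. The same held for 0 of 6 endothelial, 0 of 6 heart muscle, 1 of 6 blood (Spi1) and 2 of 5 epicardial markers (Wt1 and Upk3b). The cushion markers Twist1, Postn and Col1a1 had a start peak in 4 lists, as did the endothelial Kdr and the epicardial Tbx18. The epicardial Msln had one in 3 lists and the blood marker Cd68 in 2. Where the start was unknown, as for Snai2, Sox9, Spi1 and Wt1, a peak near either gene end counted.

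Of the 6 genes, 5 had a peak within 1 kb of the gene start in all 5 lists, as did 37.2% of protein-coding genes. They were Id1, Id2, Id3, Id4 and Msx1. Anywhere in the window the same 5 had a peak in all 5 lists, as 53.2% of protein-coding genes did. For Id1 either gene end was taken, since the tables used gave no strand for it. The gene is known to be read from its lower-coordinate end, and that side is called upstream here. Its upstream peak, listed in all 5, ended 949 to 982 bp before the lower-coordinate end, just inside the limit. With 250 bp either side of the start, 4 of the 6 had such a peak in all 5 lists. The share of protein-coding genes was not computed at that distance. Peaks of the 5 lists that overlapped were merged into regions. The 6 windows held 17 regions, of which 8 were present in all 5 lists, against 25.1% of the 49048 regions in the genome. Where a list had to cover at least 50% of a region to count, 4 were present in all 5 lists. The share of all regions was not computed under that rule, so this count cannot be set against the 25.1%. A further 4 regions were in 2 to 4 lists, and 5 were in a single list, which was NG3 each time, against 39.7% of all regions in a single list.

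**Figure D1:**
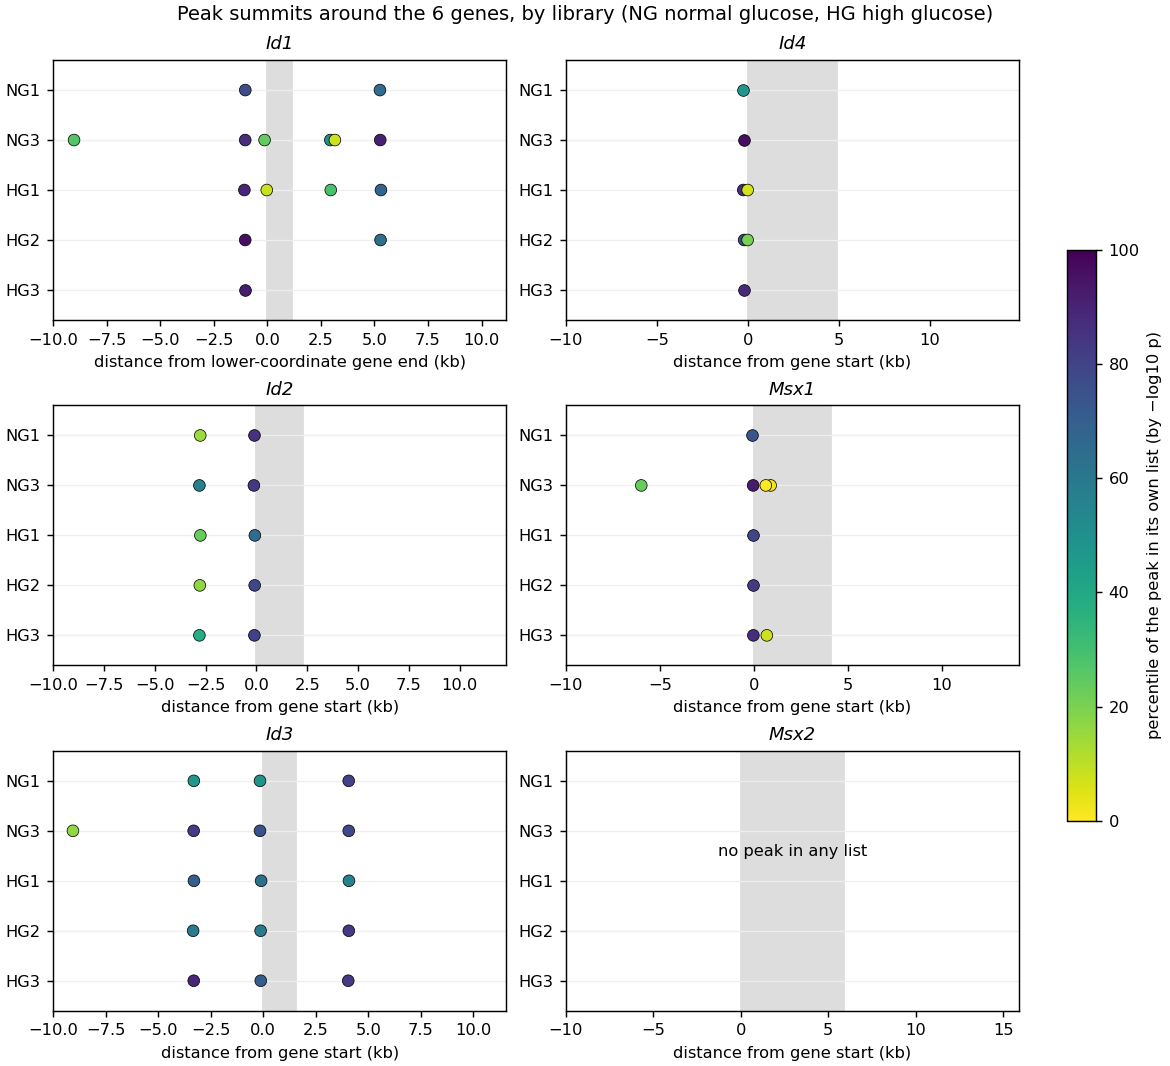
Each point is the summit of 1 peak, placed by its distance from the gene start in kb (for Id1 from its lower-coordinate end), with 1 line per library and the gene body in grey. Colour gives the percentile of the peak in its own list by the authors' −log10 p. Id3 has 3 columns of points that run through all 5 libraries, Id2 has 2, Id1, Id4 and Msx1 have 1 each, and Msx2 has none.

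The bases just before the gene start are shown for the 5 genes with a RefSeq promoter entry (GRCm38.p6), because 4 of them had a peak there in every list. Capitals mark the bases that a peak covered in all 5 lists. Each sequence holds the 250 bases that end 1 base before the start and reads 5′ to 3′ along the gene. Positions below are counted backwards from the start, so that −1 is the last base printed.
Id2, minus strand, chr12:25096093-25096342: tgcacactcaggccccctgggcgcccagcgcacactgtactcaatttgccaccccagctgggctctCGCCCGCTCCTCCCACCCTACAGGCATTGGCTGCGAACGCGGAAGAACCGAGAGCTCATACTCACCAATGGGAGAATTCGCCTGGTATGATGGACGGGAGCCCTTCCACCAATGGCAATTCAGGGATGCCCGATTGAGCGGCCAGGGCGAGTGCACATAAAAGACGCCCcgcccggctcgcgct
Id3, plus strand, chr4:136143572-136143821: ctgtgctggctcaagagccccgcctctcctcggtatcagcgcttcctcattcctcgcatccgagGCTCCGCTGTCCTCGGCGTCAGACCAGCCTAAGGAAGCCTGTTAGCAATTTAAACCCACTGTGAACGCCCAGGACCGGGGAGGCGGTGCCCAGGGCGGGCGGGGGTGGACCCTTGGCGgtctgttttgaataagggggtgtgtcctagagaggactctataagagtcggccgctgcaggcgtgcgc
Id4, plus strand, chr13:48260866-48261115: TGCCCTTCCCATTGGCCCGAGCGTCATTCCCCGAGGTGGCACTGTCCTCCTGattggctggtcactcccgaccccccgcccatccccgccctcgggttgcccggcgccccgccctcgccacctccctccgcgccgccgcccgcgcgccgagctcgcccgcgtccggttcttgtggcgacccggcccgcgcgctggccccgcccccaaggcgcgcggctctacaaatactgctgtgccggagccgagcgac
Msx1, minus strand, chr5:37824586-37824835: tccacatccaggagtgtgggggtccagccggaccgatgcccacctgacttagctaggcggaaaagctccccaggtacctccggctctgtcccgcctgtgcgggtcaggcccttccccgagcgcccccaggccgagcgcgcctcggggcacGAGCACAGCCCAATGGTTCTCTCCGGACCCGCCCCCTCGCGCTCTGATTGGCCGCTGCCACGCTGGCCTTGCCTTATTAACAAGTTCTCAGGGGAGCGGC
Msx2, minus strand, chr13:53472781-53473030: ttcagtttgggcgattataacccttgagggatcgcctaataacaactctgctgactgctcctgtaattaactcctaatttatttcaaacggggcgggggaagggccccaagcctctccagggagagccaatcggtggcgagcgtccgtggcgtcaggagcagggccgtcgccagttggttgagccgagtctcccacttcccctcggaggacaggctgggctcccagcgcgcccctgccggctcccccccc
In Id2 the shared stretch ran from −184 to −16 and in Id3 from −186 to −69. In Msx1 the capitals cover −100 to −1, and the shared stretch went on to position 42 past the start. In Id4 it lay farther out, from −284 to −199, so that the printed bases hold its last 52. The Msx2 sequence has no capitals.

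The promoter of Msx2, without a peak, had the lowest G and C content of the 5, close to that of Id2 and Id3. G and C made up 61.6% of its 250 bases, against 62.8% in Id2 and Id3, 68.0% in Msx1 and 75.6% in Id4, and the median over 21238 promoters of protein-coding genes was 55.6%. CpG dinucleotides numbered 16 in Msx2, 18 in Id2 and in Id3, 20 in Msx1 and 35 in Id4, with a median of 10.

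Matches to 11 short motifs were searched on both strands of these 250 bases. The GC box GGGCGG occurred in all 5 promoters, Msx2 included, and in 42.6% of the 21238 promoters. CCAAT, the core of NF-Y sites, occurred in Id2, Id4, Msx1 and Msx2 and in 35.4% of promoters. Within the shared stretch Id2 had 3 CCAAT matches, at −159, −120 and −76, Msx1 had 2 and Id4 had 1. GGCGCC, which SMAD proteins of the BMP branch can bind, occurred in Id2 at −231 and in Id4 at −148, both outside the shared stretch, and in 12.3% of promoters. CAGAC, a SMAD-bound sequence, occurred in Id3 alone among the 5, at −167 within the shared stretch and at −68 just past it, and in 40.8% of promoters. TGACG, part of the CRE, was found in Id3, Id4 and Msx2 (20.2% of promoters), and in Id3 it overlapped the CAGAC match. The TEAD motif GGAATG was found in Id3 and Id4 (11.7%), and the E-box CANNTG in Id2, Msx1 and Msx2 (62.8%). No match in any of the 5 was found for the full CRE TGACGTCA (1.93% of promoters) or for the E-box form CACGTG (6.63%). The AP-1 motif TGANTCA (6.14%) and the exact TATA box string TATAAA (11.6%) were likewise not found. Looser forms of the motifs were not searched. A match describes letters and is not evidence of binding.

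Id1, a direct BMP target that promotes proliferation by holding back E proteins, carried its 1 region present in all 5 lists upstream of the gene and not over it. The gene lies at chromosome 2, 152736251 to 152737410, and the region at 152735078 to 152735302, outside any annotated gene, with its mean summit 1041 bp before the lower-coordinate end. The summits of the 5 libraries lay within 43 bp of each other. Its peak stood at the 77.2 and 87.4 percentile of the lists of NG1 and NG3, and at the 89.8, 96.2 and 92.3 percentile in HG1, HG2 and HG3. The authors' fold enrichment there was 8.72 and 10.9 in the normal-glucose and 11.6, 17.0 and 13.6 in the high-glucose lists. Elements through which SMADs act on Id1 have been described upstream of the gene, and whether this region holds them was not tested.

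The other regions around Id1 were less regular. A region from 152741450 to 152741777, 4040 bp past the upper-coordinate end of the gene, was listed in both normal-glucose libraries, at the 65.1 and 91.4 percentile, and in HG1 and HG2, at 67.9 and 64.3, but not in HG3. A region from 152736050 to 152736297 reached over the lower-coordinate end of the gene. Only NG3 and HG1 had a peak in it, at the low percentiles of 23.7 and 8.05. The peak of HG1 covered that end, and the peak of NG3 stopped 106 bp before it. The same pair of libraries shared a region about 2.95 kb along from that end, at 51.3 and 28.8. NG3 alone held a region 9.03 kb before and another 3.15 kb after it, at the 27.1 and 7.77 percentile. In all, Id1 had 2 and 6 peaks in NG1 and NG3, and 4, 2 and 1 in HG1, HG2 and HG3.

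Id2, an inhibitor of E proteins that is also widely expressed in embryonic mesenchyme, had the most even pattern, with 2 peaks in every list. Its gene runs from 25093799 to 25096092 on chromosome 12. The region at its start, 25096051 to 25096315, stood at the 85.7 and 83.9 percentile in NG1 and NG3 and at 65.0, 78.6 and 81.0 in HG1, HG2 and HG3. The peak crossed the start in NG1 and HG1 and ended 11 to 16 bp before it in the other libraries. The upstream region, 25098820 to 25099025, began 2728 bp before the start, outside any annotated gene, and was weaker in each list. It stood at 15.2 and 56.6 in the normal-glucose and at 23.4, 17.0 and 38.5 in the high-glucose lists. Its summits lay within 46 bp of each other although its peaks were among the weaker ones.

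Id3 had the richest shared pattern, with 3 regions present in all 5 lists. Of protein-coding genes 4.61% had 3 or more such regions. Its gene runs from 136143822 to 136145392 on chromosome 4. At the start, from 136143602 to 136143781, the peak reached the 48.6 and 75.1 percentile in NG1 and NG3 and 63.6, 58.8 and 70.5 in the high-glucose libraries. The peak ended 41 to 69 bp short of the start in every list, whereas that of Msx1 crossed it in every list. The upstream region, 136140386 to 136140580, lay within the long noncoding RNA gene Gm42329, with its mean summit 3.31 kb before the start. It varied most of the 3, at 47.1 and 82.8 in the normal-glucose and 70.3, 59.1 and 89.3 in the high-glucose libraries.

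The downstream region of Id3, 136147728 to 136148154, lay 2336 bp past the end of the gene, outside any annotated gene. It was at least as high in its list as the start region in every library but HG1. Its values were 80.2 and 77.9 in NG1 and NG3 and 55.2, 83.4 and 83.1 in the high-glucose libraries. A peak covered the same 212 bases in all 5 lists, and the summits lay within 34 bp of each other. Another region, 9.06 kb before the start, was listed by NG3 alone.

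Id4, a family member known for its role in neural precursor cells, had a single region, from 48260721 to 48261181 on chromosome 13, merged from peaks before and over the start of the gene at 48261116. This region also lies within the long noncoding RNA gene A330033J07Rik, so the peak cannot be assigned to Id4 alone. It stood at the 46.8 and 96.4 percentile in NG1 and NG3, which gave both its lowest and its highest value. In HG1, HG2 and HG3 it stood at 87.3, 77.3 and 88.2. These strongest peaks ended 4 to 199 bp before the start. The start itself was covered by a weaker second peak in HG1, at the 6.74 percentile, and in HG2, at 20.7, and by no peak in the other libraries. The peak of NG3 was 392 bp wide and reached into the second peaks of HG1 and HG2. In NG1 it was 129 bp wide.

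Msx1 had a region over its start in all 5 lists and little else. The gene runs from 37820491 to 37824585 on chromosome 5 and is read from its upper end. The region from 37824368 to 37824731 stood at the 74.1 and 92.6 percentile in NG1 and NG3 and at 79.5, 83.0 and 87.1 in the high-glucose libraries. Its mean summit lay 48.8 bp before the start. Within the gene, a peak from 37823871 to 37823967 was listed in NG3 and in HG3 only, at the 0.0731 and 7.45 percentile. NG3 alone had 2 more regions, 1 inside the gene and 1 about 5.99 kb upstream within the noncoding genes Gm33993 and Gm40288.

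Msx2, the paralog of Msx1, runs from 53466881 to 53472780 on chromosome 13 and had 0 peaks in its window in each of the 5 lists. Of protein-coding genes 27.6% had no peak in such a window in any of them. The noncoding gene Gm33763 covers Msx2 and both sides of it, so the window without peaks takes in part of that gene as well. No peak means that no site passed the authors' threshold at an unknown depth, and not that the chromatin was closed.

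**Figure D2:**
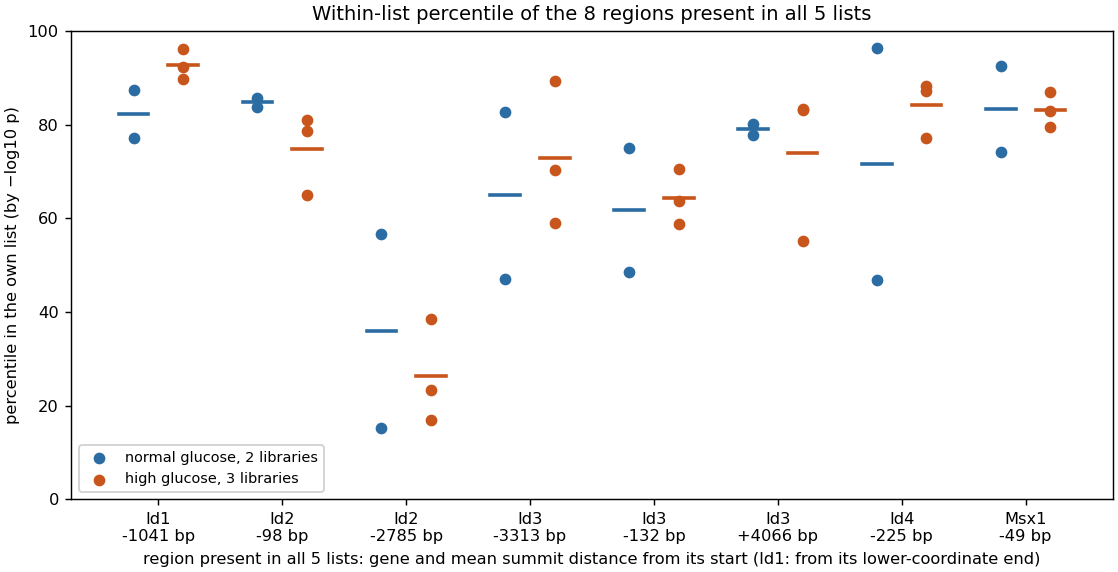
Points give the percentile of the highest peak of each region in its own list by the authors' −log10 p, for normal-glucose (blue, 2 libraries) and high-glucose libraries (orange, 3 libraries), with bars at the group means. The upstream region of Id2 is the lowest of the 8 in every library, and the region at the start of Id4 spans 46.8 to 96.4 within normal glucose alone.

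By the strongest peak in its window no gene stood apart from the other 4 that had one. Over the 5 lists that percentile ranged from 77.2 to 96.2 for Id1, 65.0 to 85.7 for Id2, 70.3 to 89.3 for Id3, 46.8 to 96.4 for Id4 and 74.1 to 92.6 for Msx1, and every pair of ranges overlapped. Id1 was the highest of the 5 in each high-glucose list. In NG1 Id2 was the highest and in NG3 Id4 was. Summits in the 8 shared regions spread by a median of 46.5 bp over the 5 lists, against 64.0 bp over all 12321 shared regions.

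No region around these genes was listed in every library of 1 glucose condition and in none of the other. Of the 17 regions 0 were present in all 3 high-glucose and no normal-glucose list, against 0.167% of all regions, and 0 were in NG1 and NG3 but none of the HG lists, against 3.73%. Without NG1 the latter count was 5, the regions that NG3 alone listed. NG3 had the longest list, and the share of all regions was not computed for that setting. The windows held 9 and 17 peaks in NG1 and NG3, and 12, 10 and 9 in HG1, HG2 and HG3, so the groups overlapped. That was 13.0 ± 5.66 (SD, n = 2) in normal and 10.3 ± 1.53 (SD, n = 3) in high glucose, so that high minus normal glucose gave -2.67 (p = 0.8 in an exact permutation test, two-sided, which cannot go below 0.2 here). The sign turned, to 1.33, when NG3 was left out. As a share of each list the peaks made up 0.0371% and 0.0421% in normal glucose and 0.0542%, 0.0400% and 0.0398% in high glucose. The difference in share was 0.00504 percentage points (p = 0.6, two-sided exact permutation test), and it fell to 0.000288 without HG1 and to 0.00253 without NG1.

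Gene by gene the number of peaks also overlapped between the groups for each of the 5 genes with peaks. The mean number in high minus normal glucose was -1.67 for Id1, 0 for Id2, -0.5 for Id3, 0.667 for Id4 and -1.17 for Msx1 (p = 0.6, 1, 0.8, 0.6 and 0.8, two-sided exact permutation tests). Of all protein-coding genes 0.27% had more peaks in every high-glucose list and 6.44% had more in both normal-glucose lists.

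The heights of peaks can be set side by side only over the same regions, so each library's −log10 p was also ranked among the 12321 regions that all 5 lists share. By this rank the region upstream of Id1 was the only one of the 8 with no overlap between the groups. It stood at the 57.4 and 60.1 percentile in NG1 and NG3 and at 81.8, 92.4 and 85.9 in HG1, HG2 and HG3. The gap of 27.9 points gave p = 0.2 in a two-sided exact permutation test, its lowest value in this design. Of all shared regions 11.9% were likewise higher in every high-glucose library, and 11.6% were higher in both normal-glucose libraries. Separated groups were thus common among shared regions. Ranked by fold enrichment, the region upstream of Id1 differed by 34.5 points, and the start of Id3 was then also higher in every high-glucose library, where 12% of shared regions were. Leaving out a library changed how many of the 8 were so ranked by −log10 p. There were 5 when NG3 was left out, 3 when HG2 was and 2 when HG1 was. With fewer libraries the groups separate more easily. The share of all shared regions was not computed for these settings, so these counts cannot be judged against it.

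The other 7 regions overlapped between the groups by −log10 p. The start of Id2 had ranks of 72.3 and 50.1 in normal and 41.7, 57.8 and 65.6 in high glucose, and the start of Msx1 had 52.5 and 76.0 against 63.8, 66.1 and 76.5. At Id3 the start region had 22.7 and 30.7 against 39.9, 28.2 and 49.0, a difference of 12.4 points (p = 0.4, exact permutation test). Its upstream region had 21.4 and 47.3 against 49.1, 28.7 and 80.5, and its downstream region had 62.4 and 36.0 against 30.1, 66.9 and 69.5. The region at the start of Id4 spread most, with 21.1 and 88.1 in normal glucose around 77.2, 55.4 and 78.5 in high glucose. The upstream region of Id2 ranked low in every library, from 3.35 to 15.8. Over the 8 regions the median absolute difference between the groups was 9.32 points, against 8.77 over all shared regions, and the median range over the 5 libraries was 32.8 points, against 33.0.

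**Figure D3:**
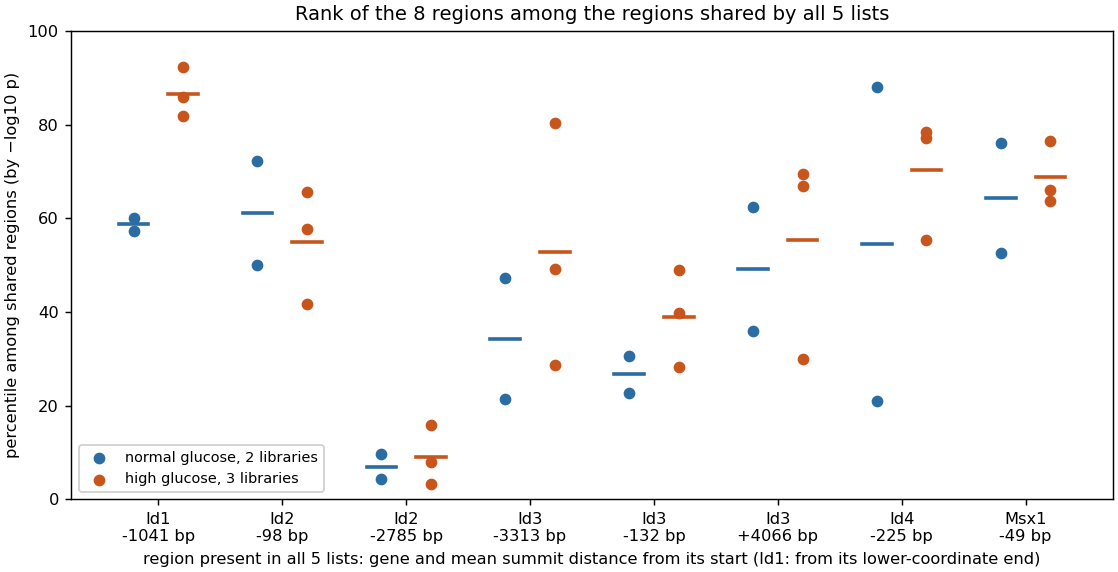
Points give the percentile of each region among the 12321 regions shared by all 5 lists, ranked by −log10 p within each library, for normal (blue, 2 libraries) and high glucose (orange, 3 libraries), with bars at the group means. The region upstream of Id1 lies at 57.4 and 60.1 in normal and from 81.8 to 92.4 in high glucose, and the other 7 regions overlap between the groups. Of all shared regions 11.9% are likewise higher in every high-glucose library, and 11.6% are higher in both normal-glucose libraries.

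Between 10 and 50 kb from the genes another 23 regions lay, of which 5 were present in all 5 lists, near the 25.1% of all regions, and 12 in a single list, against 39.7%. Id4 had 2 of the shared ones. The first, from 48227778 to 48228116, lay 33.0 kb before the start, over the noncoding genes A330033J07Rik and Gm36183, and stood between the 83.5 and 95.2 percentile of every list. The second, from 48314601 to 48314816, lay 48573 bp past the end of the gene, outside any annotated gene. Among shared regions that second one ranked at 50.9 and 64.5 in NG1 and NG3 and at 25.6, 20.4 and 39.9 in HG1, HG2 and HG3. There the normal-glucose values were the higher, by 29.1 points without overlap (p = 0.2, exact permutation test, its lowest value), as in 11.6% of shared regions.

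Id3 had a shared region 26.4 kb before its start, from 136117107 to 136117455, at the 51.7 to 72.3 percentile of the lists. Its second distant shared region lay inside E2f2, a cell cycle factor gene, and that of Id1 lay inside H13, within 1 kb of the start of Mcts2, so neither can be assigned to the Id gene. Around Msx2 the wider window held 5 regions, and none was in all 5 lists. The most often listed, from 53514661 to 53514886, lay 41.9 kb upstream within the noncoding gene Gm34022 and was present in NG3 and HG2 and HG3, at the 67.4, 9.75 and 52.8 percentile. The upstream region nearest to the start of Msx2 lay 29.8 kb away and was present in NG1 and HG2. Msx1 and Id2 had no shared region between 10 and 50 kb.

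Of 42 other genes in the BMP pathway, 24 had a peak near a start (within 1 kb) in all 5 lists, 7 in some lists and 11 in none, to be read against the 37.2% of protein-coding genes. Where the start was unknown, a peak near either gene end counted as a start peak. Among the genes with one in all 5 lists this applied to Gdf6, Acvrl1, Smad4, Smad7, Bambi, Tcf4, Tbx3 and Hey1. Start peaks were listed for few ligands and for most receptors and SMADs. Of 8 ligands 1 had such a peak in all 5 lists, Gdf6, and Bmp2, Bmp4, Bmp5, Bmp6, Bmp7, Bmp10 and Gdf2 had none in any. Of 8 receptors 6 did, namely the type 1 receptors Bmpr1a, Acvr1 and Acvrl1 and the type 2 receptors Bmpr2, Acvr2a and Acvr2b. Bmpr1b had no start peak in any list and Eng, a coreceptor, had one in 4. The SMADs that carry the signal, Smad1 and Smad5, and their partner Smad4 had one in all 5 lists, and Smad9 had one in NG1 and HG3.

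Of 11 inhibitors and antagonists 8 had a start peak in all 5 lists. They included the inhibitory Smad6 and Smad7, the ubiquitin ligases Smurf1 and Smurf2 and the decoy receptor Bambi. The strongest peak in the window of Bambi stood at or above the 98.4 percentile of every list. Of the secreted antagonists Chrd, Bmper and Twsg1 had a start peak in all 5 lists, Grem1 had none, and Nog had one in HG2 and Fst in HG2 and HG3. All 3 E proteins, which the Id proteins bind, had one in every list: Tcf3, Tcf4 and Tcf12. The lowest percentile of the strongest peak near Tcf3 was 98.7. Of 8 other BMP-responsive factors, Tbx3, Tbx20 and Hey1 had a start peak in all 5 lists, Gata4, Dlx5 and Runx2 in some, and Tbx2 and Atoh8 in none. A gene without a start peak could still have peaks elsewhere in its window. Bmp6, Bmpr1b, Tbx2 and Atoh8 had them in every list, and the strongest of Atoh8 stood at or above the 87.8 percentile. Bmp7 had none in any list, and the other genes without a start peak had them in some lists.

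**Figure D4:**
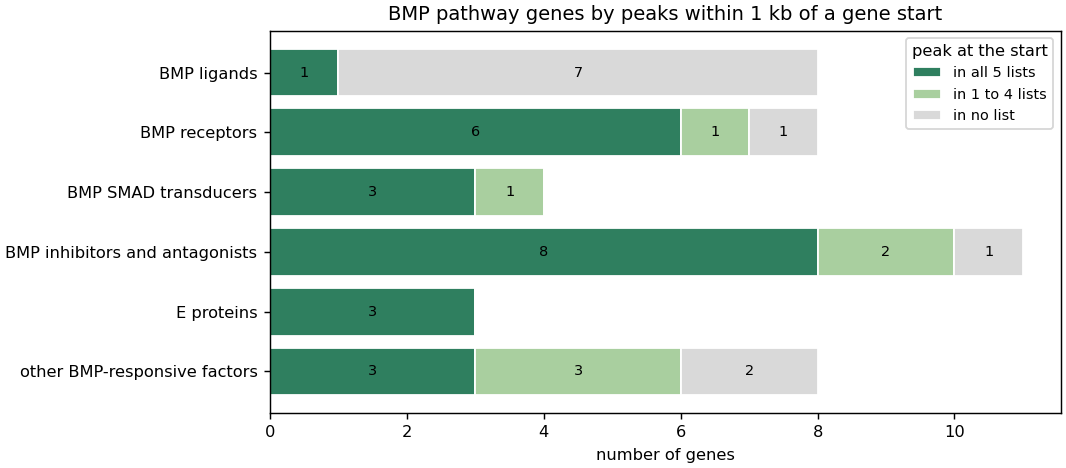
Bars give the number of genes of each pathway role, on the horizontal axis, divided by whether a peak lay within 1 kb of a gene start in all 5 lists (dark green), in 1 to 4 lists (light green) or in no list (grey). Where the start was unknown, either gene end counted. Of the ligands 1 of 8 is in all 5 lists, while of the receptors 6 of 8 and of the inhibitors and antagonists 8 of 11 are.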

How the data were processed

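The data are 6 ATAC-seq peak lists, 3 per glucose condition, from libraries grouped and numbered by the labels and sequenced as 50 bp paired-end reads. Per the submitters' processing notes, which give no roles or settings, the authors used mm10 with Bowtie 1.0.0 and MACS2 2.1.0, beside FastQC, cutadapt 1.0, Picard 1.90, SAMtools 0.1.19, DiffBind 1.12.3 and edgeR. How the transposase offset, duplicates and mitochondrial reads were handled: not given in the sources used here. Each peak in the deposited lists has a −log10 p-value, a −log10 q-value, a fold ratio over background and a score, all the authors' own values. The lowest −log10 q was 1.30. The lists hold no counts.

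The genes, pathway lists and motifs were chosen with earlier results of these data known. The lists with at least 1000 peaks were compared. Nuclear peaks overlapping by at least 1 bp were merged into regions, and a peak's percentile is its rank by −log10 p in its own list. Genes came from RefSeq (GRCm38.p6, the coordinates of mm10), without exons. Starts were known for 17492 of 21887 genes, and for the others either end was used. Means were compared by two-sided exact permutation tests. Coordinates were printed for regions in all 5 lists or at a gene start, and others were added after their values were seen. Ranks among shared regions were also added after seeing the data. A gene was left out of the antagonist list and its counts and is not reported here. Region calls were tested on simulated data. The tools were SciPy 1.17.1, pandas 2.3.3, numpy 2.4.6 and matplotlib 3.10.9 in Python 3.11.15.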

Additional observations from a re-analysis of the deposited data

How the results depend on the processing

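The count of 0 regions in all high-glucose and no normal-glucose list held under all 12 alternatives. Such regions made up 0.167% of all regions as reported, so 0 among so few regions was likely beforehand. The difference in share of a list's peaks kept its sign under all 11, from 0.000288 to 0.0183 percentage points. The highest value came with all 6 libraries, where NG2 added a share of 0, and the next was 0.0106 with −log10 q of at least 5. The difference in number turned to 0.833 with lists of equal length and to 1.67 with all 6 libraries. It ranged from -6.67 to 1.33 when a library was left out. Regions in the normal-glucose lists alone numbered 0 to 5 when a library was left out, and the 5 were those of NG3, the longest list, without NG1. Regions present in every list numbered 13 within 50 kb and 4 where a list had to cover at least 50% of a region. With all 6 libraries both these regions and the genes with a start peak numbered 0, because the list of 66 peaks had none here. The share over all regions was not computed for the 50% rule or for all 6 libraries. Regions ranked higher in every high-glucose library numbered 2 by fold enrichment and 1 to 5 when a library was left out. With a library left out, the share over all shared regions was not computed. The rank difference upstream of Id1 stayed between 23.8 and 38.1 points in 9 alternatives. Permutation tests of 2 against 3 libraries cannot pass 0.05.

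With same-numbered libraries as pairs (replicate block), the mean difference was -2.5 peaks and 0.00739 percentage points (p = 1 for both, exact permutation test, smallest possible p 0.5). Deviations from the group means correlated at -0.0620 and 0.0685 over the shared regions for libraries with the same number. For NG1 and HG2, with different numbers, the value was 0.134. The deviations of NG1 and NG3 mirror each other, so each value recurs with the opposite sign for the other of them. These correlations therefore cannot show a pairing, and the labels give none.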

Other observations

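For each gene with peaks, the protein-coding genes on other chromosomes with the most similar strongest peak in their window were found by the mean absolute difference of its percentile over the 5 lists. Nearest to Id1 were Csad and Zfp740, at 1.18 points, and to Id2 C1qtnf3 and Amacr, at 1.05. Within each of these pairs the values were the same in every list. For Id3 they were Ssr1, at 1.66, and Nrarp, at 2.06, for Id4 Rab3gap1, at 2.23, and Pyurf, at 2.57, and for Msx1 Cenpu and Erbb2, the latter at 1.32. They were the 2 closest for each gene out of 10760 to 11295 candidates, and with so many a small difference over 5 lists is easily found.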
